A study of Homo sapiens with 12 samples.

Results

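Neuroendocrine and neural lineage transcription factors were followed through selection for lung colonisation in 2 human lung cancer lines. The 9 genes are NEUROD1, INSM1, POU3F2, ISL1, PAX6, SOX2, SOX11, PROX1 and REST. They were chosen by name: a probe set of the array counted as a member where the platform annotation gave it exactly 1 gene symbol from this list, and where a gene had several, the one with the highest mean over the 12 arrays stood for it. Of the 9 genes 8 had such a probe set, 1 each, among 16939 genes tested. NEUROD1 was not analysed here. All 8 lay above the 20th percentile of the array (3.44 to 3.51 on the log2 scale) on 12 of 12 arrays, so none entered through 1 group alone.

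The arrays were Affymetrix whole-transcript arrays, 12 in all, in 4 groups of 3. A3R is A549, a lung adenocarcinoma line, after 3 rounds of in vivo selection, that is, of growth as lung nodules in mice injected through a vein, and A0R is A549 with 0 rounds. H3R is HTB56, a lung carcinoma line also called Calu-6, after 3 rounds, and H0R is HTB56 with 0 rounds. All 4 groups are labelled as untreated with 5-azacytidine. The labels name 1 selected line for each parental line. They do not say whether the 3 arrays of a group came from separate cultures, so the p-values cover the spread of these samples alone, which may be technical.

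Lineage transcription factors of this kind switch on neuronal and endocrine genes during development and in neuroendocrine tumours of the lung. NEUROD1 and INSM1 drive the endocrine programme, POU3F2 (also called BRN2) and ISL1 drive neuronal differentiation, and SOX2, SOX11, PAX6 and PROX1 act in neural progenitors and in the specification of eye, pancreas, lung or lymphatic tissue. REST works in the opposite sense: it binds the RE1 element of neuronal genes and recruits co-repressors, so that cells outside the nervous system keep these genes off.

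The promoters of the 3 members that fell in selected HTB56 cells and of REST, which rose, are given so that their sequences can be compared. Each window runs from 250 bases before to 50 after the annotated start, 5′ to 3′ on the gene's own strand, from RefSeq with build GRCh38.p14. Capitals mark the CCAAT box, CCAAT or its complement ATTGG. The windows are chr3:181711675-181711974 (plus strand) for SOX2, chr11:31817912-31818211 (minus strand) for the first of the 9 PAX6 starts, chr6:98834324-98834623 (plus strand) for POU3F2 and chr4:56907650-56907949 (plus strand) for the first of the 2 REST starts.
SOX2: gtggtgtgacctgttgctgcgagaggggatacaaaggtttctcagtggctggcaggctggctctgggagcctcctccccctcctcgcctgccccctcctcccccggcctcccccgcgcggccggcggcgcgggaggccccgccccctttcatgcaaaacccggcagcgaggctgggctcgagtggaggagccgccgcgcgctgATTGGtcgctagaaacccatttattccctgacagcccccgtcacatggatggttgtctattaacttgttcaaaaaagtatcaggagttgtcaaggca
PAX6: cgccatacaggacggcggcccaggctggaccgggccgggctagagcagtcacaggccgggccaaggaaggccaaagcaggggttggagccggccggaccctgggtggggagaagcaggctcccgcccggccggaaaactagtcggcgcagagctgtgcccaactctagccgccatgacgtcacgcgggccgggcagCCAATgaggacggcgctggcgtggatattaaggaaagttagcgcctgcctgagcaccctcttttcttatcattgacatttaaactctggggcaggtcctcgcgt
POU3F2: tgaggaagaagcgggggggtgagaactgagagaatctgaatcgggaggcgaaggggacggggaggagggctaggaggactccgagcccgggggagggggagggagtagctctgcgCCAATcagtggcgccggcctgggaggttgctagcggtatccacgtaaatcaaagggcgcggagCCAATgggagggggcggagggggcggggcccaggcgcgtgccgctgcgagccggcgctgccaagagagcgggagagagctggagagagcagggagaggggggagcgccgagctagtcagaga
REST: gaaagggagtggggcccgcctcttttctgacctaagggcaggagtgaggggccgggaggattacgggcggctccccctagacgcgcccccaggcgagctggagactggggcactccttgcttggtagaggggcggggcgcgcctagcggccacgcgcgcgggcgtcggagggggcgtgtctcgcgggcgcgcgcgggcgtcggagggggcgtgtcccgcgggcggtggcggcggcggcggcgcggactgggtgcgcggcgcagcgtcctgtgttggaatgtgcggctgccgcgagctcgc

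The SOX2 window and the first PAX6 window each held 1 CCAAT box and the POU3F2 window held 2, while neither of the 2 REST windows held one. Of the 9 PAX6 windows 3 held a CCAAT box and 6 held none. The box is common: 34.6% of all 35116 promoter windows of the same length hold it on either strand, and ISL1, which did not pass the test in either line, held 2. The GC box GGGCGG occurred once each in the SOX2 and first PAX6 windows, 2 times in POU3F2 and 3 and 2 times in the 2 REST windows, against a share of 45.0% of all windows. The core SOX motif ACAAAG lay 1 time in the SOX2 window and in 3 of the 9 PAX6 windows (share 16.1%). The octamer ATGCAAAT (share 1.77%) and the left part of the RE1 element, TTCAGCACC (share 0.376%), lay in none of the members' windows. The right part of RE1, GGACAG, lay in 2 of the 9 PAX6 windows and in the second REST window (share 20.5%). Both strands were searched for each motif, 0 of the 6 motifs are contained in another, and windows were found for 6 of the 9 members. These matches describe letters in a window, not binding.

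Array medians ran from 5.55 to 5.67 on the log2 scale, and arrays of 1 group correlated at 0.988 or more over all probe sets. A0R replicate 2 stood apart: on 12 genes that were bright in HTB56 and dim in A549 its signal exceeded the A549 median by 0.85 (median of the 12), while the remaining 5 A549 arrays lay between -0.13 and 0.03. Without this array 0 members were called in A3R against A0R, where 1 was called with it. The numbers of members called in the other 4 comparisons were the same without it.

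Below, a gene is called where its limma adjusted p was under 0.05, with Benjamini-Hochberg adjustment over all genes tested. In HTB56 4 of the 8 members were called between H3R and H0R, 3 lower and 1 higher, where 19.5% of all genes tested were called, 10.9% lower and 8.57% higher (28% called with the replicate number as a block). In A549 1 of 8 was called between A3R and A0R, higher, where 1.75% of all genes were called and 0.945% were higher (3.32% called with the block). The direction of SOX2 was opposite in the 2 lines. SOX2, PAX6 and POU3F2 changed differently with selection in HTB56 and A549 by a test of that difference, in which 11.8% of all genes were called (20.4% with the block) and 6.58% were called lower in HTB56.

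Markers of lung epithelium, fibroblasts, endothelium and leukocytes were read on the same arrays. The probe sets are for human genes and the hosts were mice, so these markers do not read host cells directly. How far mouse RNA would add to their signal was not tested. All 16 measured lung epithelial markers lay above the 20th percentile on all 12 arrays, with a mean log2 signal of 7.75 to 7.79 in A3R and 7.70 to 7.78 in A0R, and of 6.74 to 6.87 in H3R and 6.73 to 6.77 in H0R. Passing this low cut does not show expression. NKX2-1, SFTPB, SCGB1A1 and NAPSA had group means of 4.14 to 5.19, under the array medians of 5.55 to 5.67. The keratin genes KRT8 and KRT18 had group means of 11.20 to 13.55 and raise the list mean. Among the 16 markers KRT19, a keratin gene, rose by 1.14 in A3R, and EPCAM, the gene of an epithelial adhesion molecule, rose by 1.02 in H3R, where FOXA2 (0.65) was also higher and KRT7 (-0.91) lower. The list had 1 called higher and 1 lower in A549 (2 and 1 with the block) and 2 higher and 1 lower in HTB56 (3 and 1 with the block). CDH1, the E-cadherin gene and a defining epithelial marker, averaged 4.50 in H3R and 4.55 in H0R, against 8.68 in A3R and 9.53 in A0R, with a call in A549 (-0.85). CDH1, FOXA2, KRT7, KRT8, KRT18, NKX2-1, SFTPB, SCGB1A1 and NAPSA are named after their values were seen. Of the fibroblast markers 4 of 7 tested were called higher in H3R and 0 lower, where 8.57% of all genes were called higher. The 4 were LUM (1.78), COL1A1 (1.41), COL3A1 (1.29) and PDGFRA (0.71). COL1A2 (0.05), PDGFRB (-0.18) and THY1 (-0.08) gave no call in HTB56. On every HTB56 array 3 of the 10 listed markers lay under the 20th percentile. The 10 averaged 5.37 to 5.54 in H3R and 4.82 to 5.06 in H0R. Their summed linear signal was 791 to 849 in H3R and 438 to 515 in H0R. In A549 0 of the 7 were called by limma, with 1 at an unadjusted p below 0.05, and LUM was called higher with the block (log2 change 0.91, limma adjusted p = 0.0169 with the block). Leukocyte markers had 2 of 8 called higher and 0 lower in HTB56, LYZ (1.66) and CD68 (0.65). The share was 25%, against the 19.5% of all genes. List averages were 4.93 to 5.09 in H3R and 4.63 to 4.74 in H0R, and 1 of 9 lay under that percentile. In A549 0 of the 8 were called by limma, with 1 at an unadjusted p below 0.05, and CD68 was called lower with the block (log2 change -0.44, limma adjusted p = 0.00924 with the block). PDGFRA, COL1A2, PDGFRB, THY1 and CD68 are named for the small counts, after their values were seen. In HTB56 limma called 0 of 8 endothelial markers, with 1 at an unadjusted p below 0.05. The part of other cells in the members' changes was not tested, and fewer cells of a type and less RNA per cell cannot be told apart in such samples.

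**Figure D1:**
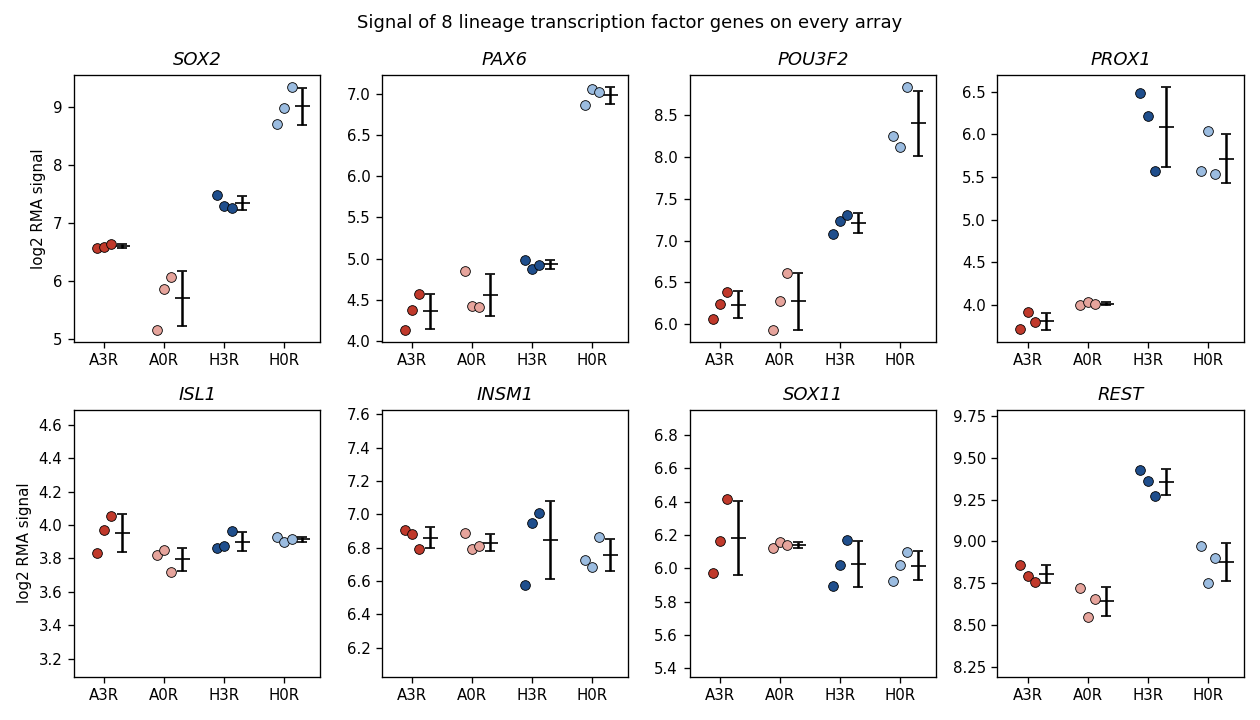
Log2 RMA signal of the 8 measured members on every array (points, 3 per group, replicates 1 to 3 left to right) with the group mean and SD beside them; each panel has its own vertical scale. The 3 H3R arrays of SOX2, PAX6 and POU3F2 lie under the 3 H0R arrays, and those of REST lie above them.

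SOX2 encodes a high-mobility-group factor of stem and progenitor cells that also shapes the airway epithelium. Its signal was 7.49, 7.29 and 7.26 on the H3R arrays, against 8.70, 8.99 and 9.35 on the H0R arrays. In A549 it was 6.58, 6.59 and 6.64 on the A3R arrays, against 5.16, 5.86 and 6.08 on the A0R arrays. Selected and unselected arrays did not overlap in either line, and in both lines the selected arrays lay closer together than the unselected ones. SOX2 fell by 1.67 in H3R (SE 0.20, limma adjusted p = 3.27e-05), a 3.18-fold difference. It rose by 0.90 in A3R (SE 0.20, limma adjusted p = 0.0322), a 1.87-fold difference. The unselected lines stood 3.31 apart on the log2 scale (H0R over A0R, SE 0.20), the selected lines 0.74 apart (H3R over A3R, SE 0.20, limma adjusted p = 0.0065).

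The rise of SOX2 in A549 is the less secure of its changes. The call was lost without A0R replicate 1 (log2 change 0.63, limma adjusted p = 0.102), the array with the lowest signal, and without A0R replicate 2 or any 1 of the A3R arrays, at adjusted p of 0.062 to 0.102. It was also lost without H0R replicate 2 (0.0523) or H3R replicate 2 (0.05005), which enter only the shared spread. Each pair of arrays with the same replicate number gave a positive difference of A3R minus A0R, 1.41, 0.73 and 0.56, and with the block the adjusted p was 0.0213. Without A0R replicate 2, the array that stood apart, the change was 0.98 (limma adjusted p = 0.062).

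PAX6 encodes a paired-domain and homeodomain factor of eye, forebrain and endocrine pancreas. It read 4.98, 4.88 and 4.93 in H3R, against 6.86, 7.06 and 7.02 in H0R, and the 2 groups lay far apart with little spread in either. It fell by 2.05 (SE 0.14, limma adjusted p = 9.79e-08), a 4.14-fold difference and the largest change among the members in either line. In A549 it was 4.14, 4.37 and 4.57 in A3R and 4.85, 4.42 and 4.41 in A0R, and these groups overlapped (log2 change -0.20, 95% confidence interval -0.49 to 0.09, limma adjusted p = 0.73). H3R still lay 0.57 above A3R (SE 0.14, limma adjusted p = 0.00295), against 2.42 between H0R and A0R (SE 0.14). The order of the PAX6 means was therefore A3R, A0R, H3R and H0R from low to high, with no overlap between H3R and either neighbour.

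POU3F2 encodes a POU-domain factor of neuronal precursors. Its signal was 7.07, 7.23 and 7.31 on the H3R arrays, against 8.25, 8.12 and 8.84 on the H0R arrays. Every H3R array lay below every H0R array, and H0R replicate 3 lay highest. POU3F2 fell by 1.195 (SE 0.19, limma adjusted p = 0.000374), a 2.29-fold difference. In A549 the values were 6.06, 6.24 and 6.39 in A3R and 5.94, 6.28 and 6.61 in A0R, the A3R values lying within the range of the A0R values (log2 change -0.04, 95% confidence interval -0.45 to 0.36). H3R stood 0.97 above A3R (SE 0.19, limma adjusted p = 0.000572) and H0R 2.12 above A0R (SE 0.19).

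**Figure D2:**
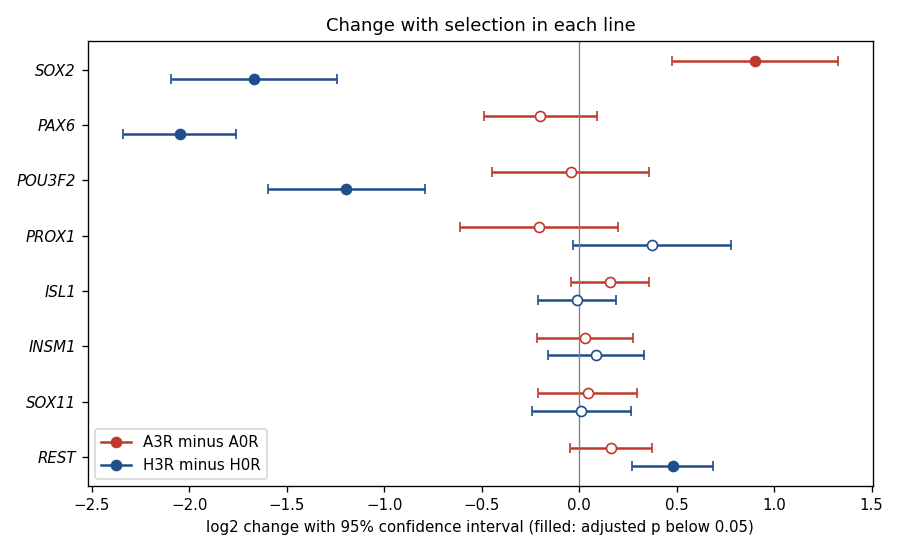
Log2 change with selection (horizontal axis) of each member in A549 (A3R minus A0R, red) and HTB56 (H3R minus H0R, blue), with 95% confidence intervals from limma; filled points passed the test. SOX2, PAX6 and POU3F2 lie left of 0 in HTB56 with intervals of -2.09 to -1.24, -2.34 to -1.76 and -1.60 to -0.79, and SOX2 lies right of 0 in A549.

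Between lines, the selection changes of SOX2 differed by -2.57, HTB56 minus A549 (SE 0.28, limma adjusted p = 3.14e-05). That of PAX6 differed by -1.85 (SE 0.19, limma adjusted p = 1.85e-05) and that of POU3F2 by -1.15 (SE 0.27, limma adjusted p = 0.0105). REST and PROX1 missed the threshold of this test at differences of 0.32 (95% confidence interval 0.02 to 0.61, limma adjusted p = 0.175) and 0.58 (0.01 to 1.15, limma adjusted p = 0.206). Without H3R replicate 3 the difference for PROX1 was 0.84 and passed the test (limma adjusted p = 0.0173).

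PROX1 encodes a homeodomain factor known for lymphatic endothelium, liver, lens and neural progenitors. It separated the lines whatever the selection: 6.48, 6.21 and 5.57 in H3R against 3.72, 3.91 and 3.804 in A3R, and 5.57, 6.04 and 5.53 in H0R against 3.998, 4.04 and 4.02 in A0R. H3R lay 2.28 above A3R (SE 0.19, limma adjusted p = 1.62e-07) and H0R 1.70 above A0R (SE 0.19, limma adjusted p = 3.07e-06). H3R and H0R overlapped, since H3R replicate 3 lay within the H0R range (log2 change 0.37, 95% confidence interval -0.03 to 0.78, limma adjusted p = 0.218). Without H3R replicate 3 the change was 0.63 and passed the test (limma adjusted p = 0.0105). In A549 every A3R array lay below every A0R array by a small margin, but the change of -0.21 did not pass the test (limma adjusted p = 0.844).

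ISL1, INSM1 and SOX11 gave no call in any of the 5 comparisons. ISL1 encodes a LIM homeodomain factor of motor neurons and endocrine cells, INSM1 a zinc finger factor used as a marker of neuroendocrine tumours, and SOX11 a factor of immature neurons. ISL1 ranged from 3.72 to 4.06 over all 12 arrays, close to the 20th percentile, so a change of a transcript at background would not be seen. INSM1 ranged from 6.58 to 7.01 and SOX11 from 5.89 to 6.41. In HTB56 the log2 change was -0.01 for ISL1 (95% confidence interval -0.21 to 0.19), 0.09 for INSM1 (-0.16 to 0.33) and 0.01 for SOX11 (-0.24 to 0.26). In A549 it was 0.16 (-0.04 to 0.36), 0.03 (-0.22 to 0.28) and 0.04 (-0.21 to 0.30) in the same order. The intervals of INSM1 and SOX11 leave out falls in signal of the size measured for SOX2, PAX6 and POU3F2 in HTB56. The interval of ISL1 cannot be read this way, since its signal had little room to fall. Whether the signals of INSM1 and SOX11 lay above the background of their own probe sets was not tested. If they did not, a fall of these transcripts would not be seen either.

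REST, the repressor of the set, rose in HTB56, where SOX2, PAX6 and POU3F2 fell. It read 9.43, 9.36 and 9.27 in H3R, against 8.97, 8.75 and 8.90 in H0R. All H3R arrays lay above all other arrays of the study. REST rose by 0.48 (SE 0.10, limma adjusted p = 0.00272), a 1.39-fold difference, and in each of the 3 replicate pairs (0.46, 0.61 and 0.37). In A549 it was 8.86, 8.79 and 8.76 in A3R and 8.72, 8.55 and 8.66 in A0R, again without overlap, but the change of 0.16 (SE 0.10, 95% confidence interval -0.05 to 0.37) did not pass the test (limma adjusted p = 0.663). H3R lay 0.55 above A3R (SE 0.10, limma adjusted p = 0.000276). H0R lay 0.24 above A0R with an adjusted p of 0.0631 by limma, and of 0.0172 with the replicate block. Tested against a fold of 1.2 instead of no change, the rise in HTB56 gave a limma adjusted p of 0.21.

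The lines themselves differed in several members. Of the 8 members 4 were higher in H0R than in A0R (SOX2, PAX6, POU3F2 and PROX1) and 0 lower, where 45.2% of all genes were called and 24.9% were higher. Between H3R and A3R 5 were higher, these 4 and REST, and 0 lower, where 44.6% of all genes were called and 24.9% were higher. Both comparisons put HTB56 above A549 for SOX2, PAX6 and POU3F2.

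Other neuroendocrine and neural transcription factors were examined as a list of 50 genes, of which 46 were tested. Besides the members, few of them moved. In HTB56 1 was called higher and 1 lower, and in A549 0 were called, with 2 at an unadjusted p below 0.05. ISL2, a LIM homeodomain factor gene related to ISL1, rose by 0.66 (SE 0.12, limma adjusted p = 0.00157), with 7.39, 7.32 and 6.99 in H3R against 6.55, 6.65 and 6.53 in H0R. ONECUT2, a homeodomain factor gene of liver and neuroendocrine tumours, fell by 0.61 (SE 0.16, limma adjusted p = 0.0154), with 5.73, 6.09 and 6.15 in H3R against 6.39, 6.90 and 6.51 in H0R. These 2 genes are named because the count was small, after their values were seen. The share called, 4.35%, lay below the 19.5% of all genes, and with the replicate block 4 were higher and 2 lower. The median change of the list was 0.03 in HTB56 and 0.01 in A549, against 0.02 and -0.01 over all genes tested.

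Genes known from other cell types as targets of REST were lower in selected HTB56 cells in many cases. Of 34 listed genes 29 were tested, and 13 were called lower and 0 higher in H3R, 44.8% against the 19.5% of all genes (with the block 14 lower and 1 higher, where 28% of all genes were called). Their median log2 change was -0.26, against 0.02 over all genes. The list was chosen with earlier results of these data known, so its share is not an independent test of the set. Of the 29, 25 lay above the 20th percentile on all 12 arrays. SCG3, which encodes secretogranin III of dense-core granules, read 3.90, 3.95 and 3.85 in H3R, against 9.004, 8.97 and 8.91 in H0R. SCG3 fell by 5.06 (SE 0.10, limma adjusted p = 2.06e-13). SCG2, the gene of secretogranin II, fell by 3.61 (SE 0.14). CHGA, the gene of chromogranin A, fell by 3.08 (SE 0.22), and SYP, the gene of the vesicle protein synaptophysin, fell by 3.02 (SE 0.15). CHGA stood at 4.71, 4.94 and 4.76 in H3R, close to its A549 values of 4.68 to 4.84 in A3R and 4.56 to 5.00 in A0R, against 8.21, 8.25 and 7.19 in H0R.

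Of these 29 genes 16 were higher in H0R than in A0R, where 24.9% of all genes were higher. REST itself was 0.24 higher in H0R (limma adjusted p = 0.0631, and 0.0172 with the block). The 13 REST targets that were lower in H3R were all among the 16. Both comparisons use the H0R arrays, so the 2 counts are not independent. In A549 1 of the 29 was called higher and 1 lower, a share of 6.9%, where 1.75% of all genes were called. Of the 29, 4 had an unadjusted p below 0.05, and the median change was -0.01. BDNF, which encodes a neurotrophin, rose by 0.84 (SE 0.18, limma adjusted p = 0.0266) and SNAP25, which encodes a protein of vesicle fusion, fell by 0.54 (SE 0.12, limma adjusted p = 0.0261); both are named for the small count, after their values were seen. Leaving out any 1 of the A0R arrays, or A3R replicate 1 or 3, brought the count of genes called higher to 0. Leaving out A0R replicate 1, or A3R replicate 1 or 2, brought the count called lower to 0. The difference of the selection changes was called lower in HTB56 for 13 of the 29 and higher for 0. Of all genes 6.58% were called lower in that test.

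**Figure D3:**
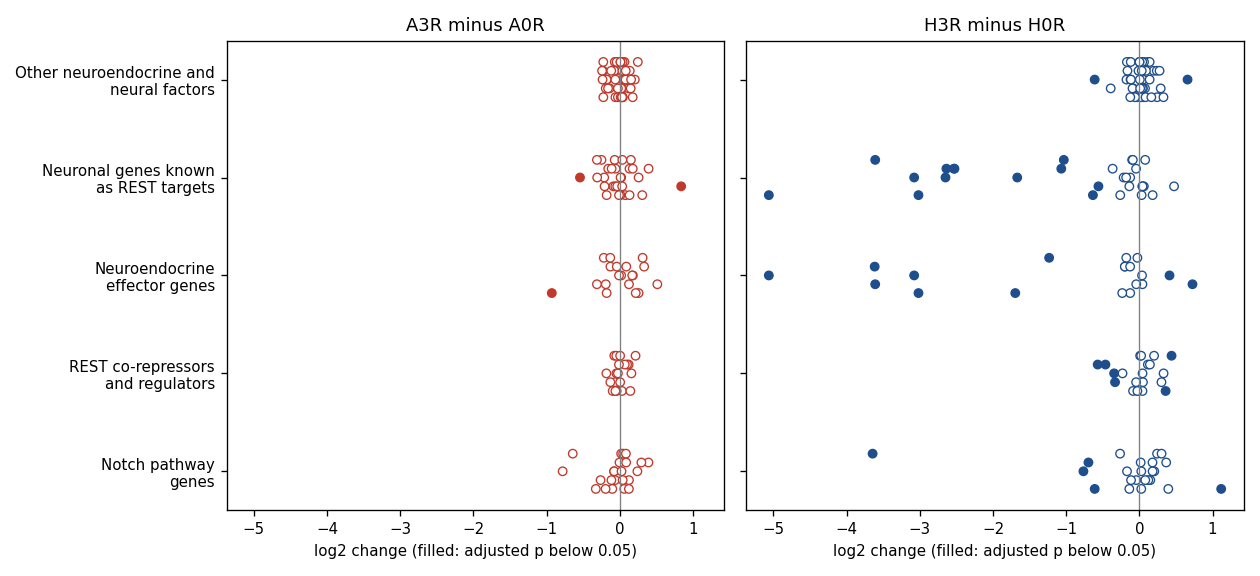
Log2 change with selection (horizontal axis) of every tested gene of 5 lists, in A549 (left, A3R minus A0R) and HTB56 (right, H3R minus H0R); each circle is 1 gene, vertical scatter within a list has no meaning, and filled circles passed the test. In HTB56 13 REST targets and 7 effector genes are filled left of 0, 4 of them on both lists, while 44 of the 46 other neural factors are open.

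Neuroendocrine effector genes, a fixed list of granule, vesicle, surface, enzyme and other genes, had 7 called lower and 2 higher of 19 tested in HTB56. Control of these genes by the members was not tested. The share was 47.4%, where 19.5% of all genes were called, 10.9% lower and 8.57% higher. The median log2 change of the list was -0.20, against 0.02 over all genes. This list too was chosen with earlier results of these data known. The list shares 5 tested genes with the REST targets, 17.2% of those and 26.3% of the effectors, and 4 of the 5 were lower. Outside the shared genes, CHGB, the gene of chromogranin B, fell by 3.62 (SE 0.12, limma adjusted p = 2.84e-10). The 2 raised genes were SYT1 (0.73), of the vesicle calcium sensor synaptotagmin, and TAGLN3 (0.41), named after their values were seen. In A549 DDC, which encodes an enzyme of amine synthesis, was the 1 gene called, named for that reason, at 7.98 in A3R against 8.90 in A0R (log2 change -0.93, SE 0.14, limma adjusted p = 0.00239). The share of the list called there was 5.26%, where 1.75% of all genes were called. With the block SYT1 was called higher in A549 as well (log2 change 0.51, limma adjusted p = 0.0508, and 0.0338 with the block).

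REST acts with co-repressors and is itself limited by splicing and turnover. Of 21 tested genes of this kind 2 were called higher and 4 lower in HTB56. The share was 28.6%, against the 19.5% of all genes. In A549 0 were called, and 0 had an unadjusted p below 0.05. With the block the HTB56 counts were 4 and 5, where 28% of all genes were called. The raised genes were CTDSPL (0.44), of the small phosphatases that act with REST, and EHMT1 (0.36), of a histone H3 lysine methyltransferase. The lowered ones were SRRM3 (-0.57), of a neuronal splicing factor, CTDSP2 (-0.46) and CTDSP1 (-0.34), of 2 more such phosphatases, and EHMT2 (-0.33), of the partner of EHMT1. The 6 are named after their values were seen, and each changed by less than 1 on the log2 scale. The Notch pathway, which represses neuroendocrine fate in the airway, had 1 of 23 higher and 4 lower in HTB56, a share of 21.7%, near the 19.5% of all genes (3 and 5 with the block, where 28% of all genes were called). JAG1, a Notch ligand gene, rose by 1.12 (SE 0.10, limma adjusted p = 2.30e-06), and MFNG, the gene of a glycosyltransferase that modifies Notch receptors, fell by 3.64 (SE 0.15, limma adjusted p = 7.50e-10). HEY1, a Notch target gene (-0.76), MAML2, a coactivator gene (-0.70), and DLL1, a ligand gene (-0.61), were the other 3 lowered, named after their values were seen. In A549 0 of 23 were called by limma (0 higher and 2 lower with the block), with 4 at an unadjusted p below 0.05.

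The members were also set beside the genes nearest to them on their chromosomes. The 3 tested protein-coding genes on either side of each member in RefSeq order were examined, a rule added after the members' values were seen. Of the 6 neighbours of SOX2, 5 were called lower in H3R and 0 higher, where 10.9% of all genes were lower. They were FXR1 (-0.51), DNAJC19 (-0.57), ATP11B (-0.48), DCUN1D1 (-0.61) and MCCC1 (-0.94), each a smaller change than that of SOX2. TTC14, the remaining neighbour, changed by -0.12 (limma adjusted p = 0.501), and in A549 it rose by 0.44 (limma adjusted p = 0.0404), the 1 neighbour of SOX2 called there. Of the 20 nearest, 10 on each side, 9 were lower and 0 higher. KLHL24, in the eighth place to one side, changed by -2.03 (limma adjusted p = 2.94e-06), more than SOX2 itself, and is named after its value was seen.

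Few genes around PAX6 and POU3F2 were called in HTB56, where 19.5% of all genes were called. Of the 6 neighbours of PAX6 0 were called by limma, and their changes ran from -0.25 to 0.33. Of the 6 neighbours of POU3F2 0 were called, with changes from -0.21 to 0.24. Among the 20 nearest, 1 was lower and 1 higher for PAX6, and 1 was lower for POU3F2. REST had 1 of 6 called lower, IGFBP7, and 0 higher. INSM1 itself gave no call. Of its 6 neighbours 4 were called higher in H3R, RIN2 (1.30), NAA20 (0.97), XRN2 (0.86) and KIZ (0.65), and 9 of the 20 nearest. Of all genes 8.57% were called higher there. SOX11 had 8 of its 20 nearest called lower and 0 higher without a call of its own, where 10.9% of all genes were lower. In A549 3 of all 48 neighbours were called, where 1.75% of all genes were called.

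**Figure D4:**
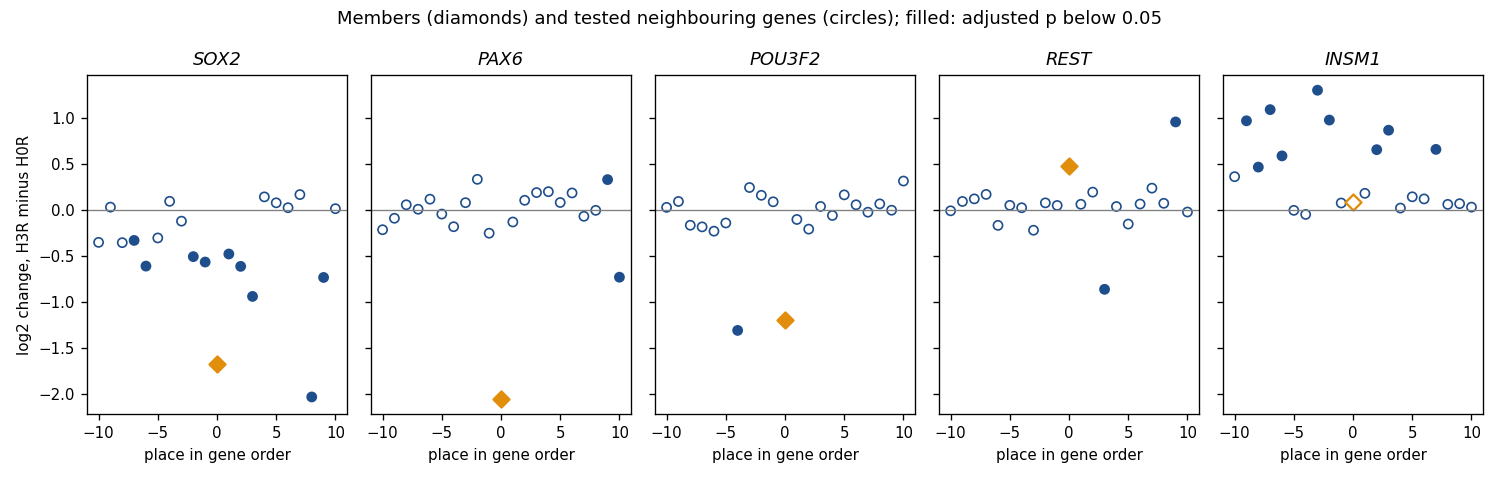
Log2 change of H3R minus H0R (vertical axis) for 5 members (diamonds, at 0) and the 10 tested protein-coding genes on either side in chromosome order (circles, horizontal axis in places, not distance); filled symbols passed the test. Around SOX2 9 of 20 circles are filled below 0, around INSM1 9 of 20 are filled above 0, and around PAX6 and POU3F2 nearly all are open.

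RefSeq places SOX2 inside SOX2-OT, a long non-coding gene, and lists antisense genes that overlap PAX6 and PROX1, and ELP4 overlaps PAX6 as well. How much of a probe set's signal comes from such partners was not tested. ELP4 changed by -0.25 in HTB56 (SE 0.12, limma adjusted p = 0.173).

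The genes whose signals followed a member most closely over the 12 arrays were found by Pearson's correlation over all genes tested, as a description, since the 12 arrays fall into 2 lines. For PAX6 they were CD69 (r = 0.994), MARCHF4 (0.992) and ZBTB1 (0.990). For SOX2 they were MRPS31P5 (0.984), PCLO (0.984) and IPO8 (0.981), and for POU3F2 MAD2L1 (0.985), PRIM2 (0.980) and DAAM1 (0.980). For REST they were GTF2H3 (0.982), WARS1 (0.979) and ZNF689 (0.978). PCLO, the gene of a presynaptic scaffold, averaged 4.91 in H3R and 6.05 in H0R, and 4.51 in A3R and 4.10 in A0R, so it ran up and down with SOX2 in both lines.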

How the data were processed

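The deposited table holds log2 values for 33297 probe sets on 12 arrays. They were made by the authors with RMA using Affymetrix Expression Console, as stated per the submitters' processing notes; program versions, not given in the sources used here, cannot be stated. RMA equalises the arrays' distributions and compresses differences of dim probe sets. The table had 0 missing values and 0 pairs of identical arrays.

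Platform annotation gave 1 symbol to 19460 probe sets. Each gene took its brightest probe set, kept where it exceeded the 20th percentile of its array on at least 3 arrays. Limma 3.58.1 in R 4.3.3 fitted 1 mean per group over all 12 arrays (lmFit, eBayes, two-sided, Benjamini-Hochberg over 16939 genes). Confidence intervals are at 95%. Sequences came from RefSeq tables, and figures from matplotlib 3.10.9 under Python 3.11.15 with pandas 2.3.3. The number of arrays limits the precision.

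Members, lists, tests and the rule for named genes were chosen with earlier results of these data known. Named list genes were called and changed by at least 1 on the log2 scale in a line, at most 4 per list, direction and line. The members, the 3 genes most like each called member, and the exceptions given in the text were named besides.

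Groups share replicate numbers of unstated meaning. Deviations from group means correlated at 0.16 to 0.549 between arrays of the same number and at -0.417 to 0.204 between others, and for 12 of 12 arrays the best match carried the same number. On this evidence from the data, which no label backs, the numbers were taken to pair the samples. The value with the replicate block is given beside the calls of members and the selection counts of lists that it changes. Neighbour counts, shares of all genes called between lines and shares in 1 direction are given without the block. Alternatives were the filter, the probe set rule, median centring, cyclic loess, a fit on the 6 arrays compared, the replicate block, array weights, trend and robust settings of eBayes, a threshold of 0.01, treat against a fold of 1.2, and leaving out each array.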

Additional observations from a re-analysis of the deposited data

Results flagged for a closer look

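The change with selection differed between HTB56 and A549 for 3 members, by the test of the difference itself. The difference, HTB56 minus A549, was -2.57 for SOX2, -1.85 for PAX6 and -1.15 for POU3F2 on the log2 scale. SOX2 was the 1 of the 3 that passed the test in both lines, lower in H3R than in H0R and higher in A3R than in A0R. For PAX6 and POU3F2 the A3R and A0R arrays overlapped.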

How the results depend on the processing

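The directions of the called members in HTB56 and of the called differences between lines held under all alternatives run. Of the 8 members, 1 was called in A3R against A0R, and 0 were called with only the 6 arrays compared, at a threshold of 0.01 and with treat against a fold of 1.2. Leaving out 1 array gave 0 to 1. Of the members called in H3R against A3R, 5 became 3 with treat, where PAX6 (limma adjusted p = 0.071) and SOX2 (0.0542) missed the threshold. Leaving out 1 array gave 4 to 5 members called in H3R against H0R, 4 to 5 in H0R against A0R, 5 in H3R against A3R and 3 to 4 in the difference of the changes. SOX2 in A549 kept its call under 13 of 23 alternatives, with a log2 change of 0.63 to 1.09. The fall of PAX6 in HTB56 ranged over -2.11 to -2.01, that of SOX2 over -1.82 to -1.50 and that of POU3F2 over -1.34 to -0.98, with a call each time. The rise of REST there ranged over 0.42 to 0.53 and missed the threshold with treat alone. PROX1 in HTB56 passed the test with array weights (log2 change 0.46, limma adjusted p = 0.0365) and without H3R replicate 3. The replicate block changed no call of a member besides REST between H0R and A0R, which also passed with median centring (limma adjusted p = 0.0469), trend and robust settings (0.0467), array weights (0.0346) and without H0R replicate 2 (0.0382). Over all genes, 297 were called in A549, 562 with the block, 142 at a threshold of 0.01, 104 with treat and 179 with the 6 arrays compared. In HTB56 the REST targets called lower numbered 11 to 14 and the effector genes 7 over all alternatives. The 5 lowered neighbours of SOX2 became 2 with treat and the 4 raised neighbours of INSM1 were 4 throughout; these neighbour counts were added after seeing the data. Several other counts of list genes moved by over 1.5 times under some alternatives, among them the 2 higher and 4 lower REST co-repressors in HTB56, which ranged over 0 to 4 and 0 to 5. Values near the 20th percentile, as for ISL1 throughout and PROX1 in A549, limit what change can be seen. The cause of these moves was not tested.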
